A study of Mus musculus with 27 samples.

Results

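The 4 genes described here, Yeats4, Yeats2, Mllt1 and Mllt3, encode proteins with a YEATS domain, and Yeats4 encodes Gas41, the protein depleted in the study. They were found as the rows of the deposited count tables that carry these symbols, and they are 4 of the 23494 genes listed in all 3 tables. All cells were J1 mESCs, a mouse ESC line grown without feeders in medium with serum and LIF, and all carried a lentiviral vector. The vectors expressed a non-targeting control shRNA (shNT, labelled shCon, 3 libraries), shGas41-1 (3 libraries) and shGas41-2 (2 libraries), and KD cells were selected with puromycin and harvested 8 days after infection. Cells with the control vector were also taken as EB day 0 (2 libraries), which is the undifferentiated culture with LIF, and as embryoid bodies after 6 days without LIF (EB day 6, 2 libraries). The labels number the EB libraries 2 and 3 and do not say whether replicates came from separate cultures. The methods state biological repeats for the experiments in general, without naming these libraries. The p-values therefore measure the spread between these libraries, which may be technical. The 15 ChIP-seq samples of the series were not analysed here.

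The YEATS domain is a histone reader that binds acetylated and other acylated lysines in a pocket lined with aromatic residues. Gas41 is a subunit of SRCAP and Tip60/p400, the complexes that exchange H2A for H2A.Z, while YEATS2 belongs to the ATAC acetyltransferase complex. ENL (Mllt1) and AF9 (Mllt3) are close relatives of each other, bind the AFF scaffolds of the super elongation complex and the histone methyltransferase DOT1L, and are known as fusion partners of MLL in leukemia.

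The sites of the hairpins are shown first, because they state which of the 4 transcripts each shRNA could pair with. The bases are those of the target strand, read 5′ to 3′, and capitals mark bases 14 to 20, the part paired by the seed of the guide strand.
shGas41-1: gtagcattccacgACGTTAAg
shGas41-2: atcgttaagccaaTCGTTTAt
Non-targeting control: caacaagatgaagAGCACCAa
In the mm9 genome the shGas41-1 site lies on the minus strand at chr10:116652513-116652533, in the 3′ UTR in exon 7 of 7 of Yeats4. The shGas41-2 site lies at chr10:116659320-116659340, in the coding sequence in exon 2 of 7. Among the annotated transcripts of 37310 genes, Yeats4 was the one gene with an exact match to either hairpin, and no gene matched the control. The 7 seed-paired bases occurred in transcripts of 2.42% of genes for shGas41-1, 2.41% for shGas41-2 and 19.6% for the control, and in none of the transcripts of Yeats2, Mllt1 or Mllt3. The longest run that Yeats2, Mllt1 or Mllt3 shared with a Gas41 hairpin was 9 bases.
The stretch for Mllt3 was:
Mllt3 with shGas41-1: gtaGCATTCCACgacgttaag
In that line capitals mark the shared run, bases 4 to 12 of the target.

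The pocket itself can be followed in the coding sequences. One of the ChIP samples is labelled for the Gas41 mutant W93A, and the codon at this position of Yeats4 and the codons aligned to it are given in capitals within 27 coding bases.
Yeats4, codon 93: acagaaacaggaTGGggtgaatttgaa
Yeats2, codon 283: actagaagaggcTGGggtgagtttcct
Mllt1, codon 78: gaggagtcgggcTATgcaggcttcatc
Mllt3, codon 78: gaagagtccgggTACgctggcttcatc
Yeats4 and Yeats2 had the same codon at this place, and Mllt1 and Mllt3 had 2 codons that differ from each other in the last base. The codons lie at chr10:116657443-116657445 (minus strand), chr16:20171295-20171297 (plus strand), chr17:57059365-57059367 (minus strand) and chr4:87526012-87526014 (minus strand) of mm9. Over the aligned region, identity to Yeats4 was 47.6% over 372 bases for Yeats2, 46.0% over 324 bases for Mllt1 and 49.5% over 222 bases for Mllt3. Coding sequences differed in length, with 227 codons in Yeats4, 547 in Mllt1, 569 in Mllt3 and 1407 in Yeats2.

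The genes differed in the properties that RNA-seq counts depend on. Yeats4 (ENSMUSG00000020171, chr10:116652198-116661563, minus strand) has 1407 bases of exon, and Mllt1 (ENSMUSG00000024212, chr17:57032035-57074836, minus strand) has 3633. Yeats2 (ENSMUSG00000041215, chr16:20141136-20232646, plus strand) has 6116 bases of exon and shares its span, but no exon, with Gm10241. Mllt3 (ENSMUSG00000028496, chr4:87415829-87679268, minus strand) has 12004 bases over 9 transcripts. Of the 6 coding transcripts of Mllt3, 3 start downstream of codon 78. The others have 1707, 1671 and 219 coding bases, and counts per gene cannot tell the transcripts apart. Exons of Mllt1 were rich in GC (59.6%, above 95.2% of expressed genes), while those of Mllt3 were poor in GC (42.2%, above 11.8%).

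The libraries held between 59224537 and 81524773 counts, so that 3 counts, taken as the smallest measurable amount, equal 0.0368 to 0.0507 CPM, the unit used here for counts relative to the library total. Every value of the 4 genes was far above this, with at least 263 counts for Yeats4 and between 336 and 701 for Mllt3, the lowest expressed. The summed level of 7 mESC markers was 5278 to 6614 CPM in the libraries of shNT and EB day 0, 5442 to 6650 CPM in those of KD cells and 2077 to 2191 CPM at EB day 6. There, 8 markers of EB differentiation reached 1478 to 1999 CPM, against at most 16.4 CPM in shNT and EB day 0 and at most 23.6 CPM in KD cells. The sums rest on the most abundant markers, and single markers moved in KD cells. Of the 7 mESC markers, 2 were lower with shGas41-1 and 1 with shGas41-2, among them Klf4 with both (log2 −1.13 ± 0.19 and −0.65 ± 0.16). Of the 8 EB markers, 2 were higher and 1 lower with shGas41-1 and none passed with shGas41-2. These marker counts stand against 18.5% (shGas41-1) and 9.91% (shGas41-2) of all genes that passed. One library stood apart, shGas41-1 3. The difference in deviation between genes in the upper and lower quartiles of exon length was −0.67 in this library on the log2(CPM + 1) scale and between −0.28 and 0.11 in the other libraries of shNT and KD cells. The same difference for GC content was −0.37 in it and between −0.03 and 0.16 in the others. The KD values of Yeats2 and Mllt1 are therefore also given without it.

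Yeats4 was depleted with both hairpins, and as the targeted gene it checks the labels. In shNT 1, 2 and 3 its level was 63.2, 54.5 and 52.1 CPM. In shGas41-1 1, 2 and 3 it was 3.50, 4.42 and 4.79 CPM. In shGas41-2 1 and 2 it was 8.68 and 7.68 CPM. All KD libraries were below all shNT libraries, as was also the case for 24.1% of genes with shGas41-1 and 32% with shGas41-2. The 3 shGas41-1 libraries were also below both shGas41-2 libraries, as for 10.5% of genes. In edgeR's quasi-likelihood test with Benjamini-Hochberg adjustment, used for all fold changes here, shGas41-1 left 7.93% of the shNT level (95% CI 5.89 to 10.7%, adjusted p = 0.000375). With shGas41-2, 15.3% of the shNT level was left (95% CI 12.3 to 19.0%, adjusted p = 0.000934). Of all genes tested, 18.5% passed an adjusted p of 0.05 with shGas41-1 and 9.91% with shGas41-2.

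The direct comparison of the hairpins gave a log2 fold change of −0.94 ± 0.18 (SE) for Yeats4, lower with shGas41-1, or 52.1% of the level with shGas41-2 (95% CI 39.5 to 68.7%). It did not pass after adjustment over 19146 genes in edgeR (adjusted p = 0.198), whereas DESeq2 gave an adjusted p of 0.000463. No gene passed that comparison in edgeR (0% of those tested), with 1348 genes at an unadjusted p under 0.05, while DESeq2 called 72 genes higher and 99 lower with shGas41-1. For Yeats2, Mllt1 and Mllt3 the hairpins differed by −0.07 on the log2 scale in each case, with 95% CIs of −0.48 to 0.33, −0.58 to 0.45 and −0.43 to 0.28, and adjusted p of 0.969, 0.978 and 0.961 in edgeR.

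**Figure D1:**
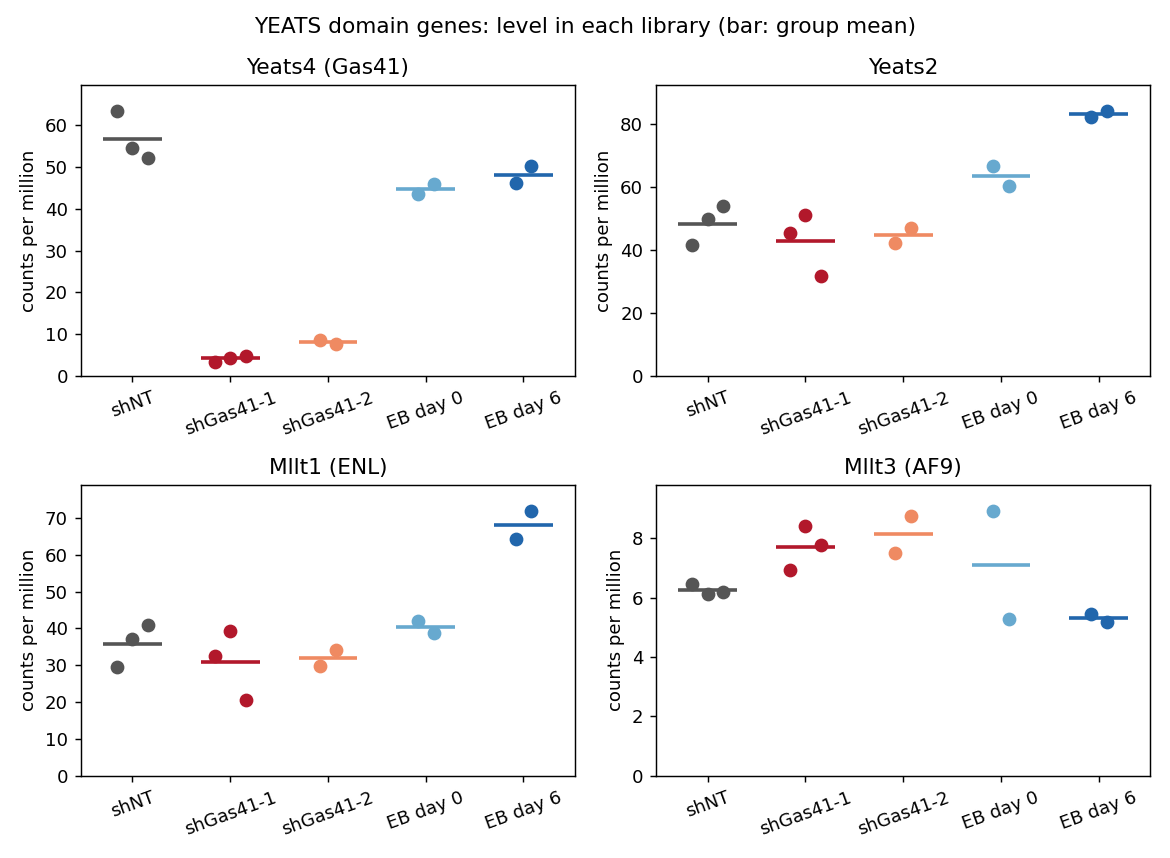
Level of each YEATS domain gene in CPM (y axis, from 0, scaled to each gene) in the 12 libraries (points) of the 5 groups (x axis), with the group mean as a bar. Yeats4 lies at 3.50 to 8.68 CPM in the 5 KD libraries against 52.1 to 63.2 CPM in shNT, and Mllt1 and Yeats2 are highest in both EB day 6 libraries.

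The other 3 YEATS domain genes did not pass the test in either KD. So 1 of 4 passed with each hairpin, the targeted gene, where 18.5% (shGas41-1) and 9.91% (shGas41-2) of all genes passed. Yeats2, whose protein is the reader of the ATAC complex, was at 41.4, 49.6 and 54.0 CPM in shNT 1 to 3. The shGas41-1 libraries 1 to 3 gave 45.3, 50.9 and 31.9 CPM, and the shGas41-2 libraries gave 42.3 and 47.0 CPM. The groups overlapped throughout, and the lowest value was that of shGas41-1 3. The log2 fold change was −0.11 ± 0.17 with shGas41-1 (95% CI −0.50 to 0.29, edgeR adjusted p = 0.693) and −0.03 ± 0.14 with shGas41-2 (95% CI −0.35 to 0.28, adjusted p = 0.898). Without shGas41-1 3, the first value was 0.02 (edgeR adjusted p = 0.916).

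Mllt1, which encodes ENL, followed the same order of libraries. Its level was 29.6, 37.0 and 41.0 CPM in shNT 1 to 3. The shGas41-1 libraries 1 to 3 gave 32.5, 39.3 and 20.5 CPM, and the shGas41-2 libraries 29.7 and 34.3 CPM. Here, too, the groups overlapped and shGas41-1 3 was the lowest of the 8 libraries. The log2 fold change was −0.15 ± 0.22 with shGas41-1 (95% CI −0.65 to 0.34, edgeR adjusted p = 0.648) and −0.09 ± 0.16 with shGas41-2 (95% CI −0.45 to 0.28, adjusted p = 0.762). Without shGas41-1 3 the first was 0.03 (edgeR adjusted p = 0.904). The interval with shGas41-1 runs from 63.9% to 127% of the shNT level.

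Mllt3, which encodes AF9, was higher in every KD library than in every shNT library. In shNT 1 to 3 it was at 6.47, 6.13 and 6.19 CPM, a spread of 2.89% (CV). This is below the counting error of 383 to 448 counts and is no measure of how far replicates vary. The shGas41-1 libraries 1 to 3 gave 6.95, 8.40 and 7.79 CPM. The shGas41-2 libraries gave 7.51 and 8.75 CPM. The groups did not overlap, as was also the case, in the direction of a higher KD level, for 18.1% of all genes with shGas41-1 and 18.2% with shGas41-2. The log2 fold change was 0.38 ± 0.15 with shGas41-1 (95% CI 0.04 to 0.73, edgeR adjusted p = 0.112) and 0.46 ± 0.14 with shGas41-2 (95% CI 0.14 to 0.77, edgeR adjusted p = 0.0721). Neither passed after adjustment. Both comparisons use the same 3 shNT libraries, so the pair of values is not a repeat of one by the other. With shGas41-2, DESeq2 gave an adjusted p of 0.0328 and leaving out shNT 1 gave 0.0484 in edgeR. A correction of the fit for GC content and exon length, added after the data were seen, gave 0.04 in edgeR. Mllt3 missed the threshold with shGas41-2 in 4 of 5 fits that left out a library and in 4 of 7 other alternatives. With shGas41-1 it missed the threshold in all 6 and all 8 such fits, the latter including the fit of both hairpins together given next. With the hairpins combined against shNT, a comparison chosen after these values were seen, Mllt3 was 1.33-fold higher (95% CI 1.08 to 1.63, edgeR adjusted p = 0.0523), where 20.5% of genes passed. The summed level of the 5 primitive endoderm markers was 4.68 to 5.57 CPM in shNT, 5.25 to 8.38 CPM with shGas41-1 and 7.63 to 8.56 CPM with shGas41-2, and 2 and 1 of the 5 were higher. Of the trophoblast markers, 2 of 4 tested were higher and 1 lower with shGas41-1, where 18.5% of all genes passed. With shGas41-2, 1 of 5 was higher, where 9.91% of all genes passed. Gata3, at only 0.083 to 0.186 CPM in shNT, was higher with both hairpins (log2 4.30 ± 0.43 and 3.26 ± 0.37). The lower one was Tfap2c (−0.63 ± 0.17), the most abundant of the 5 at a mean of 33.99 CPM in shNT. The sum of the 5 was 30.12 to 43.76 CPM in shNT, 22.03 to 27.04 CPM with shGas41-1 and 23.04 to 26.34 CPM with shGas41-2. Of the fibroblast markers, 1 of 2 tested was lower with shGas41-1. The part of these moves, and of those of the mESC and EB markers, in the values of Mllt3 was not tested.

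**Figure D2:**
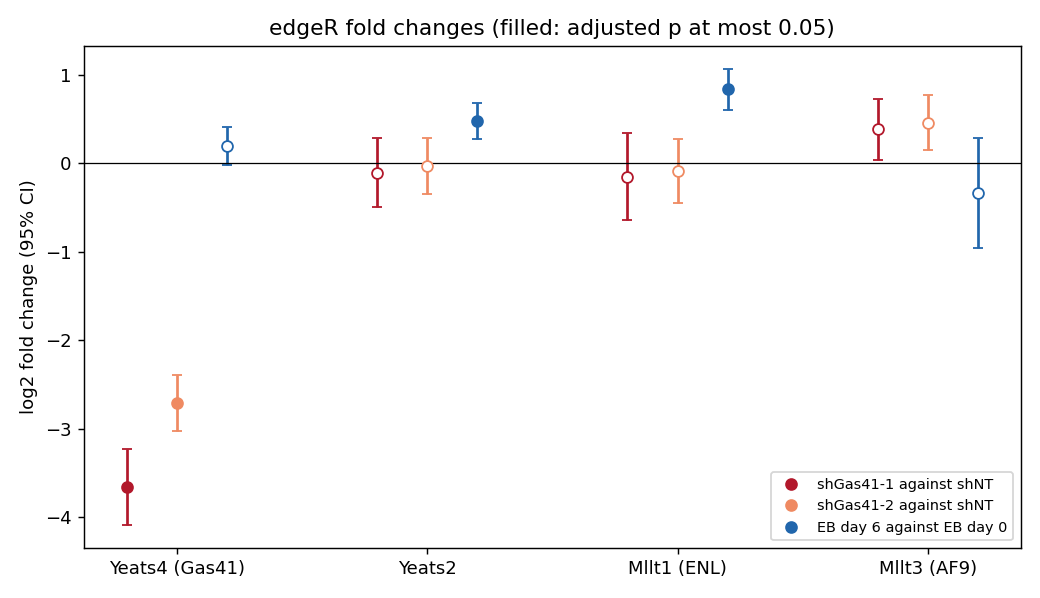
log2 fold change (y axis) of the 4 genes (x axis) in the 3 comparisons (colours), with 95% CIs from edgeR as bars and filled points for an adjusted p of at most 0.05. Yeats4 is at −3.66 and −2.71 in the KDs, and Yeats2 (0.47) and Mllt1 (0.84) pass at EB day 6.

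The second question was how the family moves as mESCs differentiate. At EB day 6, 2 of the 4 genes passed the test, Yeats2 and Mllt1, both higher, where 58.9% of all genes tested passed and 30.5% were higher. Mllt1 was at 42.0 and 38.9 CPM in the EB day 0 libraries and at 64.3 and 71.8 CPM in the EB day 6 libraries. Its level rose 1.79-fold (95% CI 1.52 to 2.09, log2 fold change 0.84 ± 0.10, edgeR adjusted p = 0.000525), below the 2-fold limit that the study set for changed genes. Yeats2 was at 66.7 and 60.1 CPM at day 0 and at 81.97 and 83.8 CPM at day 6. It rose 1.39-fold (95% CI 1.20 to 1.60, log2 fold change 0.47 ± 0.08, edgeR adjusted p = 0.00348). For both genes each day 6 library was above each day 0 library, as it was for 37.4% of all genes. The call for Yeats2 was lost without EB day 0 replicate 3 (log2 fold change 0.40, edgeR adjusted p = 0.0598). In that fit, day 0 is a single library assumed to vary like the others.

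Yeats4 did not pass at EB day 6. It was at 43.6 and 45.8 CPM at day 0 and at 46.1 and 50.2 CPM at day 6. Both day 6 libraries were above both day 0 libraries by a small margin, as for 37.4% of all genes. The log2 fold change was 0.19 ± 0.09 (95% CI −0.02 to 0.41, edgeR adjusted p = 0.105). The interval runs from 98.5% to 133% of the day 0 level. Without EB day 6 replicate 2, a fit with a single library at day 6, the log2 fold change was 0.27. Of the 7 alternatives that kept every library, 6 missed the threshold. The GC and length correction passed it (0.23, edgeR adjusted p = 0.0382).

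Mllt3 was at 8.91 and 5.27 CPM in the EB day 0 libraries and at 5.44 and 5.18 CPM at day 6. The 2 day 0 libraries differed 1.69-fold from each other, more than the groups did, and the ranges overlapped. The log2 fold change was −0.33 ± 0.26 (95% CI −0.95 to 0.29, edgeR adjusted p = 0.303). It was 0.08 without EB day 0 replicate 2 and −0.66 without replicate 3, with edgeR adjusted p of 0.791 and 0.0727, so 1 library set its direction.

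EBs hold several cell types. The marker counts that follow stand against 58.9% of all genes, the share that passed at day 6. Of the 7 mESC markers, 6 were lower at day 6, with Klf4 at −5.64 ± 0.09 and Zfp42 at −4.87 ± 0.18 (log2). Tdgf1 was higher (0.67 ± 0.14). The remaining sum of the mESC markers rested mostly on Pou5f1 and Tdgf1, at means of 836 and 802 CPM. The primitive endoderm markers summed to 47.8 and 135 CPM, against 4.68 to 7.78 CPM in shNT and EB day 0. Of these 5, 4 were higher and 1, Sox7, was lower (−3.29 ± 0.32). Fewer cells of a type and less RNA per cell cannot be told apart in such bulk samples. The 5 trophoblast markers summed to 19.2 and 31.4 CPM at day 0 and to 40.6 and 53.7 CPM at day 6, where 3 of 4 tested were higher. The 5 fibroblast markers summed to 6.17 and 9.05 CPM at day 0 and to 9.78 and 10.5 CPM at day 6, and 2 of 3 tested were higher. The part of cell composition in the changes of Yeats2 and Mllt1 was not tested. The deviation of long against short genes was 0.36 and 0.23 at day 0 and 0.50 and 0.38 at day 6. The median log2 fold change of genes in the same length decile was 0.08 for Yeats2 and 0.03 for Mllt1. In the same GC decile it was −0.01 and 0.07. With the GC and length correction both genes passed. The part of length and GC content in their changes was not tested.

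Whether a gene answered to differentiation and to KD in the same way was tested as a difference between the 2 responses, over all 12 libraries, in which 46% of genes passed. For Yeats4, the targeted gene, the difference was 3.41 ± 0.21 on the log2 scale (edgeR adjusted p = 3.28e-07). For Mllt1 the EB response exceeded the KD response by 0.99 ± 0.29 on the log2 scale (95% CI 0.36 to 1.62, edgeR adjusted p = 0.0142). The call was lost without EB day 0 replicate 3 (adjusted p = 0.0593) or EB day 6 replicate 3 (0.061) in edgeR. For Mllt3 the EB response was lower by −0.72 ± 0.27 (95% CI −1.31 to −0.13, edgeR adjusted p = 0.0465), and without EB day 0 replicate 2 the value was −0.30 (adjusted p = 0.37). Its call was kept in 3 of 12 fits that each left out a library. For Yeats2 the difference was 0.58 ± 0.23 (95% CI 0.09 to 1.07, edgeR adjusted p = 0.0537), which did not pass. It passed in 3 of 12 fits that left out a library, without shNT 1 (edgeR adjusted p = 0.0338), shGas41-1 2 (0.0232) or shGas41-1 3 (0.0234).

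Levels can be set side by side across the tables only with care, as EB day 0 and shNT are both undifferentiated cells with the control vector but come from separate sets of libraries. None of the 4 genes passed between them, where 0.387% of all genes did. Yeats4 was lower in both EB day 0 libraries than in all shNT libraries, as for 20.3% of genes (log2 −0.36 ± 0.15, edgeR adjusted p = 0.248) and Yeats2 higher in both, as for 22% (0.37 ± 0.17, adjusted p = 0.266). The values were 0.15 for Mllt1 and 0.16 for Mllt3 (edgeR adjusted p = 0.739 and 0.697). The set of libraries and the group cannot be told apart here, and the deviation of long against short genes also differed between the sets, at −0.28 to 0.11 in shNT and 0.23 to 0.36 at EB day 0.

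To compare the genes with each other, CPM were divided by the kilobases of exon, since a longer transcript gives more fragments. Yeats4 was the most abundant per length in mESCs with the control vector, at 40.2 ± 4.17 CPM per kb in shNT (SD, n = 3), 31.8 ± 1.12 at EB day 0 (n = 2) and 34.2 ± 2.07 at EB day 6 (n = 2). Mllt1 came next with 9.88 ± 1.59 CPM per kb in shNT, 11.1 ± 0.61 at EB day 0 and 18.7 ± 1.46 at EB day 6. Yeats2 was close to it, with 7.90 ± 1.05, 10.4 ± 0.76 and 13.6 ± 0.22 CPM per kb in the same groups. Mllt3 was the lowest in all 12 libraries, with group means between 0.44 and 0.68 CPM per kb. These means depend on the length used. They were 0.88 to 1.34 with the longest transcript and 3.11 to 4.76 with the longest coding sequence. With these lengths, too, Mllt3 was the lowest in all 12 libraries. All 7 libraries of shNT and EB cells had the order Yeats4, Mllt1, Yeats2, Mllt3. Between libraries, however, the ranges of Mllt1 and Yeats2 overlapped in shNT (8.15 to 11.3 and 6.77 to 8.82 CPM per kb) and at EB day 0 (10.7 to 11.6 and 9.83 to 10.9).

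After KD the order changed to Mllt1, Yeats2, Yeats4, Mllt3 in all 5 libraries. The per-length level of Yeats4 was 3.01 ± 0.47 CPM per kb with shGas41-1 (n = 3) and 5.81 ± 0.51 with shGas41-2 (n = 2). That of Yeats2 was 6.98 ± 1.60 and 7.30 ± 0.55, and that of Mllt1 8.47 ± 2.63 and 8.80 ± 0.89. With coding length in place of exon length, Yeats4 was above Yeats2 in 2 of these 5 libraries, so the order of these neighbours depends on the length used. Of the summed per-length level of the 4 genes, Yeats4 made up 64.2 to 74.4% in shNT, 12.8 to 22.9% with shGas41-1 and 23.4 to 28.2% with shGas41-2. The sum itself was 57.5 to 60.4 CPM per kb in shNT and 14.9 to 23.3 in the KD libraries. At EB day 6 the share of Yeats4 was 50.9 to 51.3%, against 57.2 to 60.8% at day 0, while the sum was higher, at 64.3 and 69.6 against 54.2 and 53.5 CPM per kb, and Mllt1 took 27.5 to 28.4% against 20.0 to 21.3%.

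**Figure D3:**
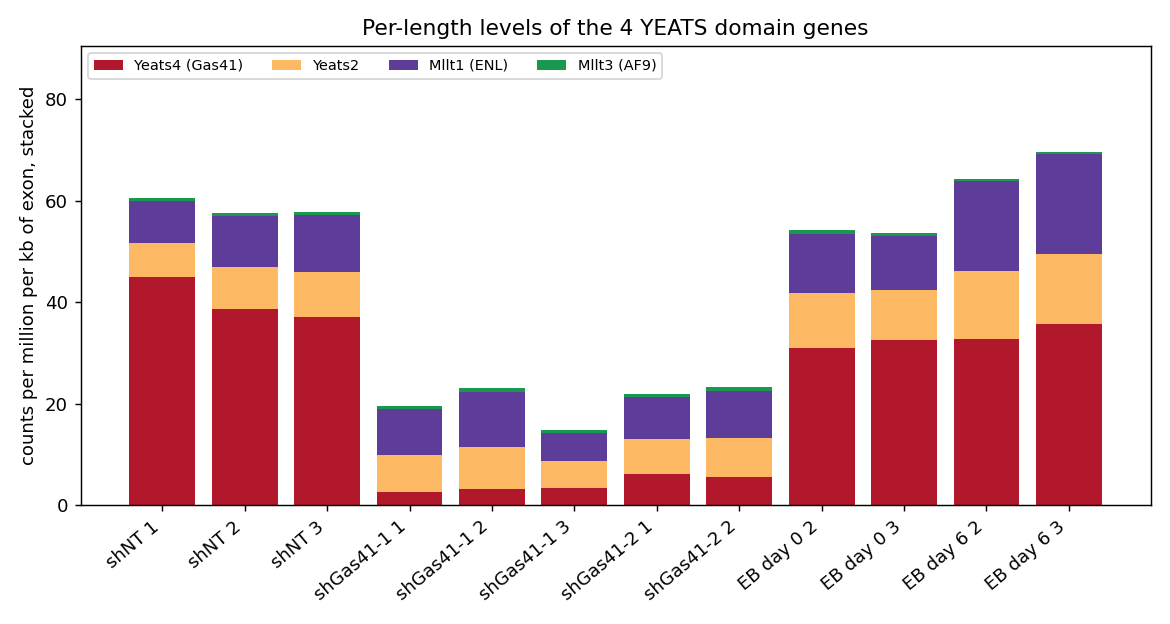
Per-length level of the 4 genes (CPM per kb of exon, stacked, y axis from 0) in each of the 12 libraries (x axis: group and replicate number). The sum is 57.5 to 60.4 in shNT and 14.9 to 23.3 in KD libraries, where Mllt1 is the largest part, and Mllt3 is the thin top layer in every library.

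Yeats2 and Mllt1 varied together from library to library. Pearson's r of their log2 levels was 0.97 over the 12 libraries and 0.996 over the 8 libraries of shNT and KD cells, where each was the gene most like the other among the 15094 genes compared. In these 8 libraries both were highest in shNT 3 and lowest in shGas41-1 3. The libraries share their depth and composition, and the deviations of long and of GC-rich genes were also lowest in shGas41-1 3 (−0.67 and −0.37) and highest in shNT 3 (0.11 and 0.16). The part of length and GC content in this likeness was not tested. The r of Yeats4 with Yeats2, Mllt1 and Mllt3 was 0.53, 0.49 and −0.69, and that of Mllt3 with Yeats2 and Mllt1 −0.49 and −0.51.

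**Figure D4:**
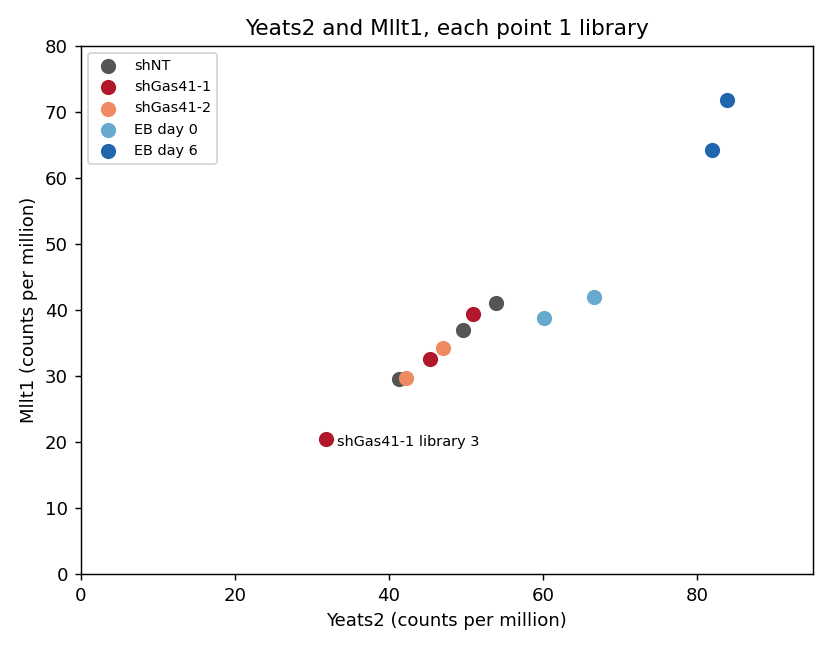
Level of Mllt1 (y axis, CPM) against Yeats2 (x axis, CPM), each point 1 of the 12 libraries, coloured by group. The 8 shNT and KD libraries lie along 1 line from shGas41-1 3 (31.9 and 20.5 CPM) to shNT 3 (54.0 and 41.0 CPM), and both EB day 6 libraries lie at the top right.

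The 3 genes most like each member over the 12 libraries were chosen by Pearson's r, as a description. For Yeats4 they included Dnajc22 (r = 0.994) and Neil1, a DNA glycosylase (0.985). Dnajc22, for example, was at 6.09 to 6.68 CPM in shNT, 0.945 to 1.39 with shGas41-1, 1.39 to 2.02 with shGas41-2 and 5.54 to 6.14 CPM in the 4 EB libraries. For Yeats2 they included Plxna1, a semaphorin receptor (0.994), and Mlxip (0.986), and for Mllt1 they were Sppl3 (0.989), Fam108c (0.989) and Eef2, the translation elongation factor (0.988). Mllt3 had no close match, its best being Lcat (0.888), Vmn1r65 (0.886) and U6 (0.886), all with means under 2 CPM in every group. Only 2 of the 12 genes chosen in this way were found again with Spearman's rho, and none with the 8 shNT and KD libraries alone.

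The partners of each reader were counted by complex, from lists of known subunits. For Yeats2, 11 genes of the ATAC complex were tested and none passed in either KD, where 18.5% and 9.91% of all genes did, with median log2 fold changes of −0.08 and 0.05, against 0.02 and −0.01 over all genes. At EB day 6, 3 of the 11 were lower and none higher, where 58.9% of all genes passed (median 0.04, all genes −0.003). Kat2b, one of the alternative acetyltransferases of the complex, fell by 2.68 on the log2 scale and the adaptor Tada3 by 1.14 (edgeR adjusted p = 0.000195 and 6.51e-05), while Yeats2 itself rose.

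For Mllt1 and Mllt3, 11 genes of the super elongation complex were tested. With shGas41-1, 3 were higher and 1 lower, where 18.5% of all genes passed (median −0.02). With shGas41-2, 2 were higher and none lower, where 9.91% passed (median 0.06). The scaffold gene Aff3 was higher with both hairpins, at log2 1.34 ± 0.36 and 0.77 ± 0.17 (edgeR adjusted p = 0.0352 and 0.0303). The scaffold gene Aff1 was lower with shGas41-1, at −1.004 ± 0.23 (edgeR adjusted p = 0.0197, lost in 3 of 14 alternatives). The elongation factor Ell2 was higher with both, at 0.80 ± 0.12 and 0.58 ± 0.10 (edgeR adjusted p = 0.00353 and 0.0158), the first named after its value was seen. The call of Ell2 was lost in 0 of 14 and 3 of 12 alternatives. Eaf2 was higher with shGas41-1 (0.92 ± 0.24, edgeR adjusted p = 0.031), a call lost in 5 of 14 alternatives, among them the one without shGas41-1 3. The call of Aff3 was lost in 5 of 14 alternatives with shGas41-1 and in 4 of 12 with shGas41-2. At EB day 6, 4 were higher and 5 lower, where 58.9% of all genes passed (median 0.01). Aff3 was again higher (4.39 ± 0.23) and Aff1 lower (−1.40 ± 0.10), with edgeR adjusted p of 2.53e-05 and 7.14e-05, and neither call was lost under any of 11 alternatives. Ell2 rose by 0.75 (lost in 2 of 11 alternatives, range 0.39 to 1.05) and Eaf1 fell by 0.72 (lost in 1 of 11). Of the 3 genes of the DOT1L complex, none passed in a KD, and at EB day 6 Mllt10 was higher (0.24 ± 0.08, lost in 9 of 11 alternatives) and Mllt6 lower (−1.62 ± 0.18).

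For Yeats4, 8 other subunits of SRCAP and 16 of 17 of Tip60/p400 were tested, and 5 genes are in both lists. Their counts stand against 18.5%, 9.91% and 58.9% of all genes that passed with shGas41-1, shGas41-2 and at EB day 6. With shGas41-1, no SRCAP gene was higher and 2 were lower, Dmap1 (−0.54 ± 0.13, lost in 4 of 14 alternatives) and Ruvbl1 (−0.39 ± 0.11, lost in 10 of 14 alternatives), with a median of −0.12. None passed with shGas41-2 (median −0.04). Of Tip60/p400, 1 was higher and 4 lower with shGas41-1 (median −0.06), and 1 was higher and 1 lower with shGas41-2 (median 0.02). The acetyltransferase Kat5 was lower with both hairpins, at −0.56 ± 0.13 and −0.45 ± 0.11 (edgeR adjusted p = 0.0175 and 0.0401), and Epc1 higher with both, at 0.61 ± 0.15 and 0.51 ± 0.12 (adjusted p = 0.0238 and 0.0404). The calls of Kat5 were lost in 4 of 14 and 4 of 12 alternatives, and those of Epc1 in 4 of 14 and 5 of 12. At EB day 6, 1 SRCAP gene was higher and 4 were lower (median −0.38), among them Znhit1 (−0.75 ± 0.11) and Actr6 (−0.57 ± 0.12). Of Tip60/p400, 3 were higher and 5 lower (median −0.12), among them Mbtd1 (0.43 ± 0.10), Ing3 (−0.87 ± 0.09) and Ruvbl2 (−0.45 ± 0.09). Vps72, in both lists, was higher by 0.27 ± 0.09, a call lost in 8 of 11 alternatives. Of the H2A.Z genes H2afz and H2afv, neither passed in a KD, and H2afz was lower at EB day 6 (−0.30 ± 0.08, lost in 5 of 11 alternatives).

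Readers of acetyl-lysine with another fold, the bromodomain and double PHD finger proteins, were counted for comparison, with 16 of 18 genes tested, against the same shares of all genes (18.5%, 9.91% and 58.9%). With shGas41-1, 2 were higher and none lower (median −0.27), Dpf3 (1.57 ± 0.34) and Brdt (1.5 ± 0.32). The edgeR adjusted p was 0.0153 for both, and the calls were lost in 4 and 2 of 14 alternatives. Both levels were low. Dpf3 was at 0.12 to 0.19 CPM in shNT and 0.37 to 0.47 CPM with shGas41-1, and Brdt at 0.40 to 0.95 and 1.47 to 2.21 CPM. With shGas41-2, none was higher and 1 was lower (median −0.14), Phip (−0.53 ± 0.13, edgeR adjusted p = 0.0416, lost in 3 of 12 alternatives). At EB day 6, 4 were higher and 2 lower (median 0.20), with Cecr2 (0.98 ± 0.08) and Phip (0.51 ± 0.11) higher, and Dpf1 (−0.92 ± 0.17) and Taf1 (−0.39 ± 0.09, lost in 3 of 11 alternatives) lower.

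**Figure D5:**
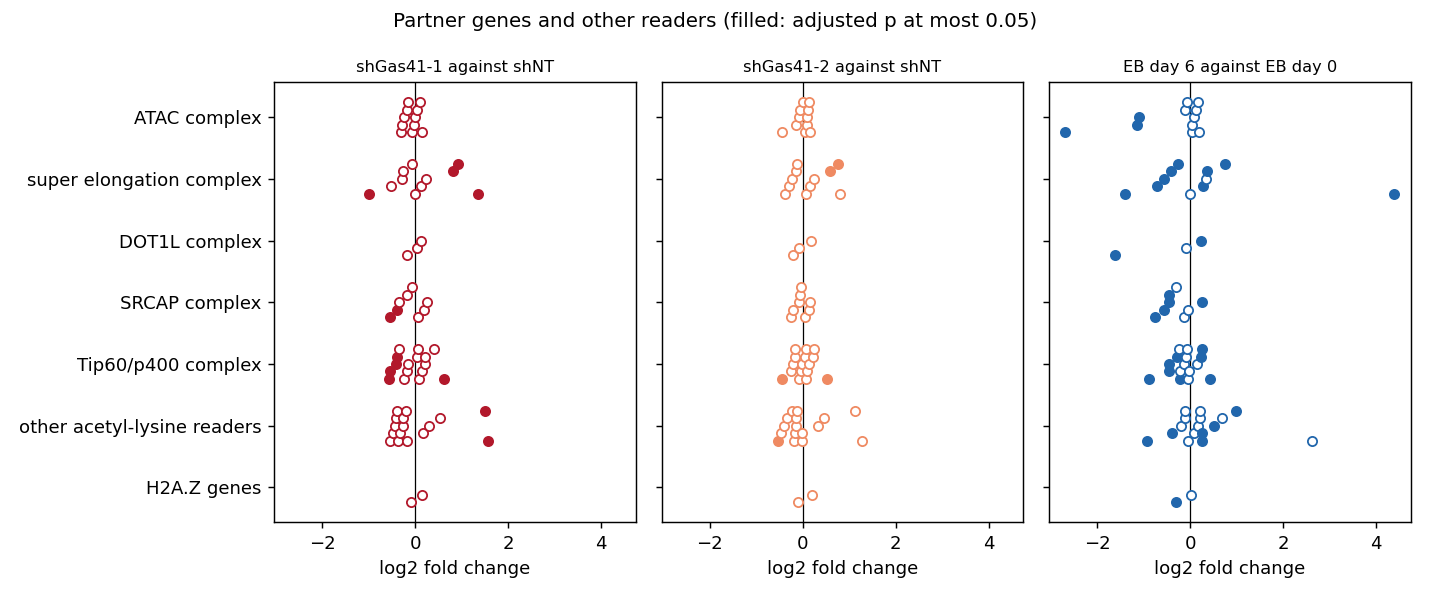
log2 fold change (x axis) of each tested gene (points) of the 7 lists (y axis) in the 3 comparisons (panels), filled for an edgeR adjusted p of at most 0.05. Points are spread vertically only to separate them; the point far to the right in the EB panel is Aff3 at 4.39, and the one far to the left is Kat2b at −2.68.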

How the data were processed

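RNA-seq was made by the authors with a TruSeq kit on a NextSeq instrument. Per the methods and processing notes, reads were mapped to mm9 with TopHat2 2.0.10 and counted per gene with htseq-count. The deposited values used are raw counts, whole numbers without normalization. The deposited tables also hold the authors' own log2 fold changes, p-values and FDR, which were not used. Whether counting used strand is not given in the sources used here. Columns named ESC were read as EB day 0. Labels gave every group.

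Counts were tested in R 4.3.3 with edgeR 4.0.16 (filterByExpr with a minimum count of 10 and a total of 15, TMM) by the quasi-likelihood test, with Benjamini-Hochberg adjustment over 18274, 18405 and 18287 genes for shGas41-1, shGas41-2 and EB day 6, 19146 genes for the direct comparison of hairpins and 19613 for comparisons over 12 libraries. A gene passed at an adjusted p of 0.05 or less. SE is the absolute log2 fold change divided by the square root of F. TMM factors were between 0.945 and 1.05. The script that made the tests was checked on simulated counts, for shGas41-1, shGas41-2 and EB day 6 in turn. It called 9.21%, 24.1% and 18.3% of simulated 1.5-fold changes. Of 2-fold changes it called 57.6%, 74.6% and 54.8%, and of 4-fold changes 92.2%, 87.9% and 90.3%. CPM are not TMM-scaled. Likeness used log2(CPM + 1). Gene models, transcripts and sequence came from GENCODE M1 on mm9, and 99.7% of genes with a mean of 1 CPM had GC and length.

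Members and lists were chosen with earlier results of these data known. Named were the 4 genes, up to 2 genes per list, direction and comparison with the largest passing change, and 3 most alike genes per member, of which 2 are not reported here. Alternatives were DESeq2 1.42.0, library totals alone, no count filter, halved counts, 1 fit over 12 libraries, leaving out each library, a block for the replicate number, other lengths and, added later, a GC and length correction and both hairpins together. The fit of both hairpins together also uses shGas41-2 libraries. It was counted among the alternatives for shGas41-1, for the 4 genes and for the listed genes. Same-numbered libraries did not deviate together in every pair (r = 0.02, 0.13 and −0.31 for shNT with shGas41-1, 0.27 and 0.18 for shNT with shGas41-2, 0.06 for EB), and replicates of a group differed far beyond sampling noise (chi-square per degree of freedom at least 29.2). Reads are not independent molecules, so floors cover counting error only.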

Additional observations from a re-analysis of the deposited data

How the results depend on the processing

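The fall of Yeats4 in both KDs and the rise of Mllt1 at EB day 6 passed under every alternative run, and the rise of Yeats2 at EB day 6 under all but 1. Over all 6 comparisons, 78 of 81 refits kept the direction and the side of the threshold for Yeats4, 67 for Yeats2, 70 for Mllt1 and 62 for Mllt3. The cause of a move was not tested.

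Leaving out 1 library at a time gave, for Yeats2, log2 fold changes of −0.23 to 0.025 with shGas41-1, −0.13 to 0.058 with shGas41-2, 0.40 to 0.54 at EB day 6, −0.20 to 0.070 between hairpins and 0.49 to 0.66 for the difference of responses. For Mllt1 they were −0.35 to 0.032, −0.21 to 0.027, 0.75 to 0.93, −0.26 to 0.13 and 0.88 to 1.09. For Mllt3 they were 0.33 to 0.47, 0.32 to 0.58, −0.66 to 0.084, −0.21 to 0.064 and −1.04 to −0.30, and −0.26 to 0.48 for EB day 0 against shNT. For Yeats4 they were −3.80 to −3.51, −2.79 to −2.62, 0.12 to 0.27, −1.08 to −0.80 and 3.31 to 3.49. The number of genes that passed ranged from 962 to 2092 higher and 479 to 1756 lower with shGas41-1, 283 to 2198 and 23 to 1933 with shGas41-2, 2778 to 5537 and 2288 to 5384 at EB day 6, 3431 to 5110 and 3520 to 4957 for the difference of responses, and 1 to 827 and 0 to 835 for EB day 0 against shNT, where both highest counts came without shGas41-1 3. Where an arm kept 1 library, it was assumed to vary like the others.

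The libraries share only a replicate number. With this number as a block, the log2 fold changes with shGas41-2 were 0.057 for Yeats2, 0.027 for Mllt1 and 0.45 for Mllt3 (edgeR adjusted p = 0.000764), and Mllt3 missed the threshold in the difference of responses (−0.67, adjusted p = 0.0641). The block left 1107 genes higher and 442 lower with shGas41-1, 3536 and 3630 with shGas41-2, and 26 and 3 for EB day 0 against shNT. With shGas41-2, shNT 3 has no partner of its number, so the block takes it out of the comparison. Little replication is then left to measure the spread, and the p-values and counts of that fit are not firm evidence.

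With DESeq2, Mllt3 passed with shGas41-2 (0.47), Yeats4 between hairpins (−0.96) and Yeats2 in the difference of responses (0.58). DESeq2 called 2170 genes lower with shGas41-1, 1412 with shGas41-2, 72 higher and 99 lower between hairpins, and 611 and 500 for EB day 0 against shNT. The GC and length correction gave 0.011 for Yeats2 and 0.072 for Mllt1 with shGas41-1, 0.051 and 0.070 with shGas41-2, 0.0051 for Mllt1 between hairpins and −0.27 for Mllt3 at EB day 0 against shNT. Under it Mllt3 passed with shGas41-2 (0.56), Yeats4 at EB day 6 (0.23) and Yeats2 in the difference of responses (0.38). It called 1832 genes higher with shGas41-2, 3 higher and 1 lower between hairpins, and 23 lower for EB day 0 against shNT. Library totals alone gave 1290 genes lower with shGas41-2, and 1 fit over 12 libraries 2680 lower with shGas41-1. With coding length, Yeats2 was above Yeats4 in 3 libraries instead of 5. Of 12 most alike genes, 2 were found again with Spearman's rho and 0 with the 8 shNT and KD libraries.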
